A study of Homo sapiens with 16 samples.

Results

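Ribosomal protein genes were followed as a set of housekeeping genes through 4 maps of open chromatin. The set holds every protein-coding gene of chromosomes 1 to 22 whose symbol is RPL or RPS with a number, together with RPLP0, RPLP1, RPLP2 and RPSA. The symbol rule, which uses no measured value, gave 80 of 19126 protein-coding genes in the GRCh38.p14 RefSeq table. Members on the X chromosome, and FAU, RACK1 and RPL36AL, fall outside it.

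The assay was ATAC-seq, in which a transposase cuts accessible DNA, on the human cell line MDA-MB-231, which was established from a breast adenocarcinoma. All 16 samples carried the wild-type genotype and formed 4 groups of 4. These were selected cells on soft gel, selected cells on stiff gel, ancestral cells on soft gel and ancestral cells on stiff gel. Gels were polyacrylamide with type I collagen at a stiffness of 1 kPa (soft) or 308 kPa (stiff), and selected cells had been kept for 75 days on soft gel, whereas ancestral cells had not been through that selection. The stated purpose was to compare soft-selected with ancestral cells on soft matrix.

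The authors deposited 1 peak list per group, so there are no replicate values, no test between groups was possible, and each interval below covers counting error only. The lists held 129755 peaks for selected cells on soft gel, 122591 for selected cells on stiff gel, 109578 for ancestral cells on soft gel and 116043 for ancestral cells on stiff gel. The pileup of a peak is the number of fragments over its summit, its highest point. The background pileup, the only depth measure in the lists, was 13.5, 12.6, 16.3 and 20.2 fragments in the same order, and the median pileup of a peak was 51, 56, 111 and 132. Each gene was therefore given the pileup of its highest peak within 1 kb of the gene, divided by the median pileup of that list, which is called relative pileup here. A taller peak from more cells with the site open, and one from more cuts per cell, cannot be told apart. Of the line's marker genes, VIM (vimentin) had a relative pileup of 21.0 to 27.6 over the 4 lists, while the luminal genes ESR1 and CDH1, of which this line is known to make little, still had peaks of 3.09 to 5 and 5.46 to 7. The keratin gene KRT8 stood at 26.2 to 30.8, above VIM in each list, KRT18 at 5.82 to 7.52 and CD44 at 4.90 to 10.9. For CD44 and KRT8 in both ancestral lists the peak numbering skips a number nearby, so a peak may be missing there.

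Ribosomal proteins assemble with ribosomal RNA in the nucleolus into a small subunit, whose proteins carry RPS names, and a large subunit, whose proteins carry RPL names. Their genes are transcribed at a high rate in growing cells, and their mRNAs begin with a C followed by a run of pyrimidines, the 5′TOP element through which the mTOR pathway controls their translation. Many of their introns hold genes of small nucleolar RNAs, which guide the modification of ribosomal RNA. In these annotations 27 of 80 members (33.8%) enclosed such a gene, 58 genes in all, against 2.50% of the other protein-coding genes.

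RefSeq promoter entries of GRCh38.p14, each 250 bases before to 50 bases after the annotated start, were matched for 63 of 80 members. The 6 stretches below are the 250 bases before the start, written 5′ to 3′ on the gene's own strand. RPLP1, RPS12 and RPS23 are shown because their peaks were the most raised in selected over ancestral cells on soft gel, RPL9 because its peak was the most lowered, and RPS6 and RPL26 because they carry the motif TCTCGCGA. Capitals mark any of 8 searched motifs on either strand, namely TCTCGCGA (a motif known from housekeeping promoters), the ETS core CCGGAAG, the Sp1 site or GC box GGGCGG, the TATA box TATAAA, the YY1 site AAGATGGC, the box CCAAT that binds NF-Y, the E box CACGTG, and the pyrimidine stretch CTTTCC.
RPLP1 (chr15:69452568-69452817, plus strand): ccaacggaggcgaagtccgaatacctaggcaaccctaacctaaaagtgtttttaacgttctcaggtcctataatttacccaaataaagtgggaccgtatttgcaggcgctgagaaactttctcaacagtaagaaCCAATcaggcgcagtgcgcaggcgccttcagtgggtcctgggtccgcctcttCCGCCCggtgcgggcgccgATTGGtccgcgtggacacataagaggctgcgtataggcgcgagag
RPS12 (chr6:132814319-132814568, plus strand): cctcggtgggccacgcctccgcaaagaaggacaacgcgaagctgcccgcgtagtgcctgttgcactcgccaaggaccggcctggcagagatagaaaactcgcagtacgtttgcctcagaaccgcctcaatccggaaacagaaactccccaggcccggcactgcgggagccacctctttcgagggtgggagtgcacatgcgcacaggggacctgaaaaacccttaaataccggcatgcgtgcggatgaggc
RPS23 (chr5:82278355-82278604, minus strand): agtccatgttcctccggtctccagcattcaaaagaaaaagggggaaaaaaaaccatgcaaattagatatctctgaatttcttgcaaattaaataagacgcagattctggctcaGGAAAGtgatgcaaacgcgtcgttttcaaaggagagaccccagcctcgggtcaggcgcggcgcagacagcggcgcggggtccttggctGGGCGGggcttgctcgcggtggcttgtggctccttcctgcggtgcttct
RPL9 (chr4:39458923-39459172, minus strand): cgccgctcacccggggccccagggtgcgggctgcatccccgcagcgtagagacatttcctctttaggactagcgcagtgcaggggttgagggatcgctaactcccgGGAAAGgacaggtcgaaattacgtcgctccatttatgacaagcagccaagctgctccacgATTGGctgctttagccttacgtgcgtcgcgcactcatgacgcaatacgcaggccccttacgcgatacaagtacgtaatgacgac
RPS6 (chr9:19380237-19380486, minus strand): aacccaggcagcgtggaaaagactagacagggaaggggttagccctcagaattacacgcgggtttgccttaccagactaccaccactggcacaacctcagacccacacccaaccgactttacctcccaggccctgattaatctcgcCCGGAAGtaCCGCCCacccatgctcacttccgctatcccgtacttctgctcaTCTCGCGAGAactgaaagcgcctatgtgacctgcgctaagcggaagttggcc
RPL26 (chr17:8383194-8383443, minus strand): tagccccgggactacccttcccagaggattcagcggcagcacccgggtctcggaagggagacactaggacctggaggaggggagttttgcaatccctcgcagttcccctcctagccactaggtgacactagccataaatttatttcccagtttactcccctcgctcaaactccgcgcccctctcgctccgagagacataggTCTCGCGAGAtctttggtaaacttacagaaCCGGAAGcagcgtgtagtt
RPLP1 holds CCAAT on both strands and a GC box, RPS23 a GC box together with CTTTCC, RPL9 the CCAAT box together with CTTTCC, and none of the 8 motifs was found in the stretch of RPS12. In RPS6 and RPL26 a palindrome gives TCTCGCGA on both strands, and the 2 matches overlap.

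Over the whole 300-base windows, TCTCGCGA was present in 11 of 63 members (17.5%), against 1.97% of all 15101 promoters. Its holders were RPL10A, RPS6, RPL12, RPL7A, RPL27A, RPL4, RPL26, RPL17, RPS15, RPS28 and RPS19. A C followed by 4 pyrimidines stood at the annotated start of 44 members (69.8%), against 6.22% of all promoters. CCGGAAG was found in 34.9% of members and 16.7% of all promoters, AAGATGGC in 11.1% and 4.65%, and CTTTCC in 42.9% and 32.1%. GGGCGG was found in 55.6% of members against 64.6% of all promoters, CCAAT in 34.9% against 41.8%, TATAAA in 11.1% against 12.5%, and CACGTG in 7.94% against 10.8%. The median G+C content was 60% in member windows and 62.4% in all.

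Nearly every ribosomal protein gene that could be judged had a peak in each list. A peak was present at 60 members in selected cells on soft gel, 59 in selected cells on stiff gel, 63 in ancestral cells on soft gel and 56 in ancestral cells on stiff gel. The share was 98.4%, 98.3%, 98.4% and 98.2% of determined members. It was 86.4%, 86.3%, 84.6% and 85.3% of the other determined protein-coding genes. The single determined member without a peak was RPL10L, the same in all 4 lists. RPL10L (chr14:46651010-46651781) is a retrogene copy of RPL10 known for its use in the testis. The other 19, 20, 16 and 23 members were undetermined, because their window touched a stretch in which the numbering of the peaks skips a number, so that a peak may be missing from the list. Between 1107 and 1311 numbers, 1.00% of each list, are skipped, and the shortest stretches with a skip, 6392 to 9099 bp, were in each list longer than its widest listed peak. Thus 29 members (36.3%) were undetermined in at least 1 list, against 12.05% of the other protein-coding genes, and 11 of the 12 members on chromosome 19 were among them.

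Among those undetermined in all 4 lists were RPL10A, RPL8, RPL12, RPL36, RPS16, RPS19, RPL18, RPS9 and RPL3. Among those undetermined in some lists were RPL29, RPL37, RPS18, RPL35, RPL7A, RPLP2, RPL27A, RPL3L, RPS2, RPL13, RPL23A, RPL19, RPS15, RPL13A, RPL28 and RPS21. The values below leave out a member in each list where it is undetermined, and 50 members had a peak in all 4 lists. No member had a peak in only 1 list of any comparison. Among all protein-coding genes, a peak in just the selected list was seen at 3.82% (soft gel) and 2.78% (stiff gel), and one in just the ancestral list at 1.48% and 1.56%. Between gels, a peak in just the soft list was seen at 1.4% in selected cells and 0.626% in ancestral cells, and one in just the stiff list at 1.25% and 1.61%.

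The promoters themselves were nearly always open. A peak overlapped the promoter window of 54 of 55 determined members in selected cells on soft gel, 56 of 57 in selected cells on stiff gel, 57 of 58 in ancestral cells on soft gel and 52 of 53 in ancestral cells on stiff gel. The share was thus 98.1% to 98.3% of members, against 74.1%, 75.0%, 70.8% and 72.0% of other genes in the same order. The highest peak at the gene was the one over its own promoter in 39 of 47, 39 of 47, 44 of 51 and 39 of 46 members, or 83.0% to 86.3%, against 64.3% to 66.2% of other genes. Its summit stood a median of 94, 94, 82 and 69 bp from the annotated start, mostly on the upstream side. Between 12 and 16 members per list had a peak that also covered another gene's promoter. Examples are RPL9 with LIAS (a lipoic acid synthase), RPL15 with NKIRAS1, RPS25 with TRAPPC4, and RPL41, whose peak reached ZC3H10.

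Peaks at ribosomal protein genes were taller than those at other genes in each list, and the ratio of the 2 medians was larger in selected cells. Their median relative pileup was 10.3 in selected cells on soft gel, 11.8 in selected cells on stiff gel, 9.04 in ancestral cells on soft gel and 9.95 in ancestral cells on stiff gel. Other protein-coding genes with a peak had medians of 6.43, 7.64, 7.02 and 8.52. The members' median was thus 1.59, 1.55, 1.29 and 1.17 times that of the other genes. These values use the tallest peak at a gene, which lay over its own promoter more often in members than in other genes. Over the promoter window alone the gap was smaller in each list. Members then had medians of 8.96, 9.55, 8.46 and 9.53, against 6.65, 8.04, 7.36 and 9.04 at other genes. From their tallest peaks, the proteasome genes, another housekeeping set, stood at 1.75, 1.55, 1.31 and 1.26 times the other genes' median. The nuclear genes of mitochondrial ribosomal proteins stood at 1.31, 1.17, 1.06 and 1.06 times. A higher factor in selected cells was therefore seen in all 3 sets. The determined genes differ between lists, so these factors do not compare the same genes. For genes measured in both lists, the median ratio of selected over ancestral cells was divided by that of all genes. On soft gel it was 1.136 for members, 1.097 for the proteasome and 1.089 for mitochondrial ribosomal proteins. On stiff gel it was 1.079 (33 of 51 above the all-gene median), 1.034 (19 of 33) and 0.997 (35 of 71). On stiff gel any rise was thus small.

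**Figure D1:**
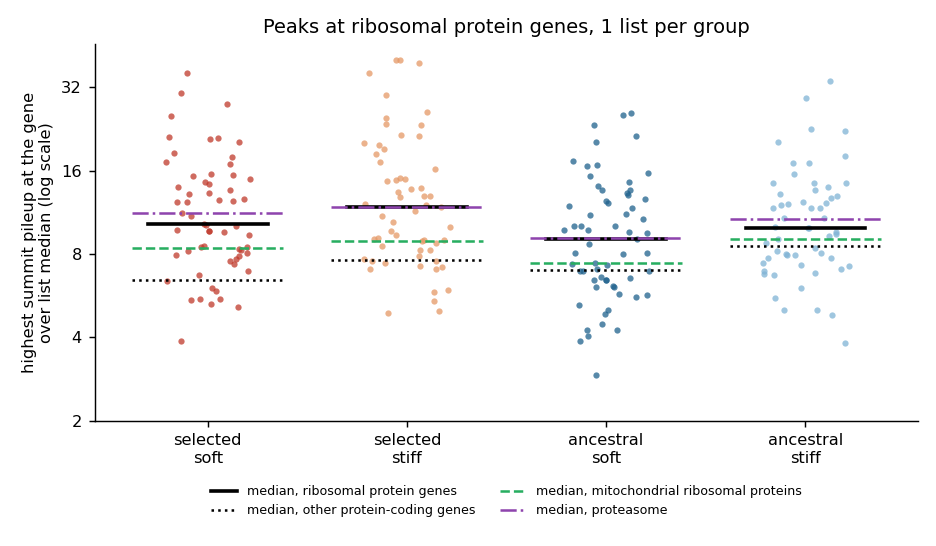
Relative pileup (highest summit pileup at the gene over the list's median pileup, log scale) of each ribosomal protein gene with a determined peak, 1 point per gene, in the 4 lists. Lines give medians of gene sets; the members' medians lie between 9.04 and 11.8, above the other protein-coding genes in each list.

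The tallest peaks belonged to RPS29, RPL7L1, RPL27, RPL41 and RPS25. RPS29, a small-subunit protein, had pileups of 1831 and 2192 in selected cells on soft and stiff gel and of 2812 and 3878 in ancestral cells on soft and stiff gel. RPL7L1, a paralogue of RPL7 with a role in ribosome assembly, had 1417 and 2021 in selected cells and 2859 and 4470 in ancestral cells on soft and stiff gel. Neither peak lay over the member's own promoter. The RPS29 summit was 12104 bp inside the gene, where the promoter peak itself had 512 and 549 in selected cells and 943 and 1503 in ancestral cells. The RPL7L1 peak covered the promoter of PEX39, and the gene's own promoter had 1057 and 1123 in selected cells and 1782 and 2475 in ancestral cells.

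RPL27 (1288 and 1392 in selected cells, 2264 and 2928 in ancestral cells) and RPS25 (1060 and 1196 in selected cells, 1857 and 2692 in ancestral cells), given for soft and then stiff gel, had relative pileups of 16.7 to 25.3 over the 4 lists. The lowest members with a peak in all 4 lists were RPS7, RPL37A, RPL21, RPL32 and RPS27L, with relative pileups of 3.88 to 6.70. RPS7, of the small subunit, had 278 and 274 in selected cells and 497 and 664 in ancestral cells. RPL21, of the large subunit, had 301 and 280 in selected cells and 473 and 731 in ancestral cells. Over all determined members and lists, relative pileup ran from 2.93 to 40.2.

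In selected over ancestral cells on soft gel, the comparison the study names, most ribosomal protein genes stood above the median of all genes, by a small margin. The median log2 ratio of relative pileup was 0.21 over 56 members, against 0.02 over all 14169 genes measured in both lists. After the all-gene median was subtracted, which is called centring and is done for every single member's ratio of relative pileup below, the members' median was 0.18, a fold of 1.14. Of the 56 members, 44 were above the all-gene median, as are 50% of all genes by construction. Before centring, 3 members were past 1.5-fold higher (8.07% of all genes) and 0 past 1.5-fold lower (5.17%). After centring the counts were again 3 (7.74%) and 0 (5.76%). The count before centring depends on the scale, with 7 higher when other genes and 9 higher when top peaks set it, 8 higher with the pileups of all peaks at a gene summed, and 0 higher and 30 lower on the authors' fold enrichment. The spread over members was narrower than over all genes, with an interquartile range of 0.34 against 0.42 on the log2 scale. It was narrower still over the proteasome (0.18), mitochondrial ribosomal proteins (0.24), translation factors (0.28) and ribosome biogenesis genes (0.33). Over the 3 measured ribosomal proteins outside the symbol rule it was 0.36.

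The 3 members past 1.5-fold were RPLP1, RPS12 and RPS23. RPLP1 (chr15:69452818-69456205) encodes an acidic protein of the stalk of the large subunit, which recruits translation factors. Its peak had 679 fragments in selected cells on soft gel, against 782 in ancestral cells on soft gel, and a relative pileup of 13.3 against 7.05. The centred log2 ratio was 0.89 (95% interval 0.74 to 1.05), a fold of 1.86, and higher than that of 95.2% of all genes. The summit stood 62 bp past the annotated start in selected cells and 24 bp past it in ancestral cells, so that both peaks lay on the promoter whose upstream bases are printed above.

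RPS12 (chr6:132814569-132817564), of the small subunit, had 796 fragments in selected cells on soft gel and 1082 in ancestral cells on soft gel. Its relative pileup was 15.6 against 9.75, with a centred log2 ratio of 0.66 (0.52 to 0.79). RPS23 (chr5:82273320-82278354), which sits at the decoding centre of the small subunit, had 384 fragments against 541, a relative pileup of 7.53 against 4.87, and a centred log2 ratio of 0.60 (0.41 to 0.80). RPS26 followed with 526 against 771 fragments and 0.55 (0.38 to 0.71). All 4 had fewer fragments in selected than in ancestral cells, and stood higher only relative to the rest of each list.

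At the other end, RPL9 (chr4:39454124-39458922), of the large subunit, had 404 fragments in selected cells on soft gel against 1188 in ancestral cells on soft gel. Its relative pileup was 7.92 against 10.7, and its centred log2 ratio of −0.46 (−0.62 to −0.29) was the lowest of the members. RPL34, also on chromosome 4, had 343 against 888 fragments and −0.27 (−0.46 to −0.09). RPL35A (−0.25), RPL17 (−0.25) and RPL14 (−0.23) came next, and the first 2 of these depended on which peak stood for the gene. For RPL35A the tallest peak was over the promoter in selected cells and at the gene's 3′ end in ancestral cells, and its promoter peaks alone, with 438 against 896 fragments, gave 0.07. For RPL17 the tallest peak lay over the promoter of C18orf32, and the promoter peaks alone, with 162 against 326 fragments, gave 0.09.

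On stiff gel the same comparison of selected over ancestral cells gave a smaller median. The raw median log2 ratio was 0.07 over 51 members against −0.04 over all genes, or 0.11 after centring, a fold of 1.08, and 33 of the 51 members lay above the all-gene median (50% of all genes). Past 1.5-fold higher were 2 members before centring (5.33% of all genes) and 2 after it (5.74%), and past 1.5-fold lower were 0 before (4.37%) and 0 after it (3.62%). These 2 were again RPLP1 and RPS12. RPLP1 had 772 fragments in selected cells on stiff gel against 1059 in ancestral cells on stiff gel, a relative pileup of 13.8 against 8.02, and a centred log2 ratio of 0.82 (0.69 to 0.96). RPS12 had 912 against 1430 fragments, 16.3 against 10.8, and 0.63 (0.51 to 0.75). RPS24 and RPS29 followed at 0.47 and 0.46, although for RPS29 this was the internal peak, and its promoter peak gave −0.18. The lowest were RPL35A at −0.39, again from different peaks and −0.02 at its promoter, RPL9 at −0.35 (503 against 1554 fragments), RPS27L at −0.26 and RPL6 at −0.24, which was 0.13 at its promoter.

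**Figure D2:**
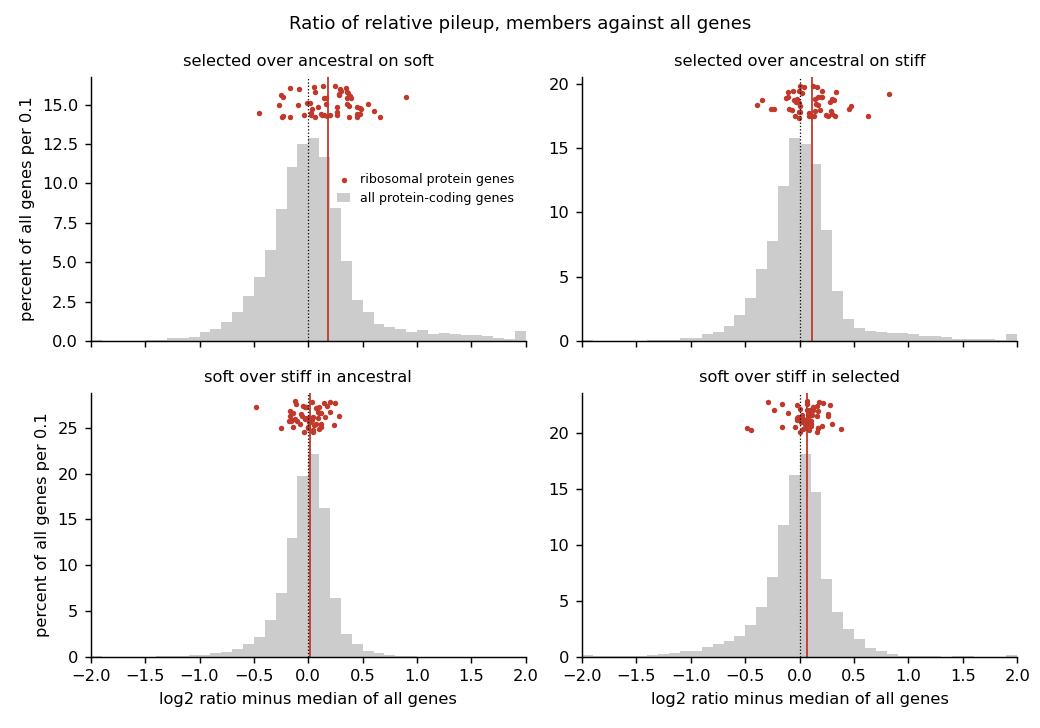
Centred log2 ratio of relative pileup in the 4 comparisons: grey bars give the percent of all protein-coding genes per bin of 0.1 (the outermost bins also hold genes beyond the axis), red points the ribosomal protein genes (height within the band has no meaning) and the red line their median. Most members lie within the central part of the distribution, RPLP1 at 0.89 and 0.82 in the upper panels being the farthest out, with medians of 0.18, 0.11, 0.02 and 0.07.

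The 2 comparisons of selected over ancestral cells share no list, although they may share the cell populations. Of the 50 members measured in all 4 lists, 29 were above the all-gene median on both gels, 9 below it on both and 12 on opposite sides. Across members the centred log2 ratios on the 2 gels had a Pearson r of 0.74 (n = 50), and across all 13664 such genes 0.72, so the members followed each other between gels about as all genes did. Genes are not independent replicates, and the r is given as a description.

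**Figure D3:**
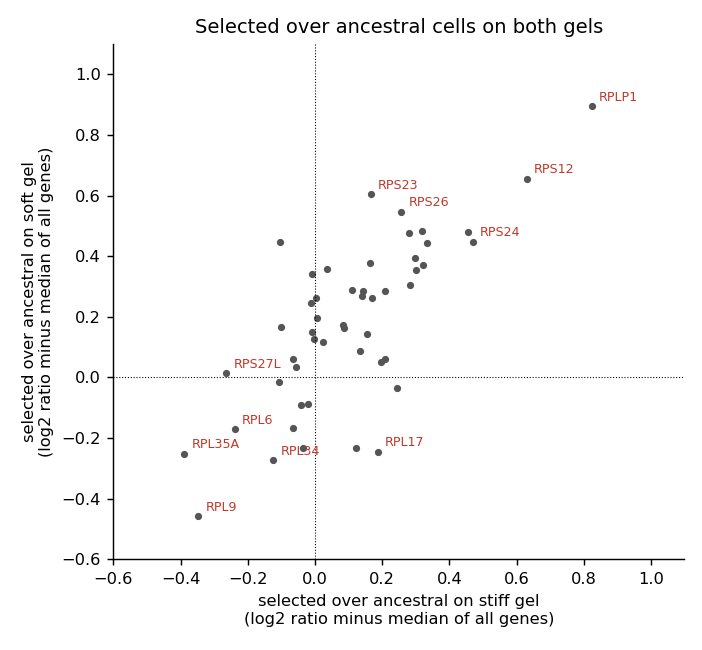
Centred log2 ratio of relative pileup in selected over ancestral cells on soft gel (vertical) and on stiff gel (horizontal), 1 point per ribosomal protein gene, n = 50. RPLP1 and RPS12 stand at the upper right, at 0.89 and 0.66 on soft gel, and RPL9 at the lower left.

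The other protein-coding genes within 5 Mb were set beside each member, to show whether it stood apart from its stretch of the chromosome. RPLP1 and RPS12 stood apart from their surroundings. On soft gel the genes around RPLP1 had a median centred log2 ratio of 0.14, and RPLP1 was above 81 of 82 of them. Around RPS12 the median was −0.22 (soft gel) and −0.20 (stiff gel), and RPS12 was above 35 of 35 and 36 of 36 of them. RPL9 did not stand apart. The genes around it had medians of −0.36 on soft gel and −0.35 on stiff gel, next to −0.46 and −0.35 for RPL9 itself, which was above 12 of 28 and 15 of 31 of them. The genes around RPL34 had −0.31 and −0.24, next to its own −0.27 and −0.12. Over all members the median difference from the surroundings was 0.23 on soft gel, with 42 of 56 above theirs, and 0.11 on stiff gel, with 35 of 51 above.

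**Figure D4:**
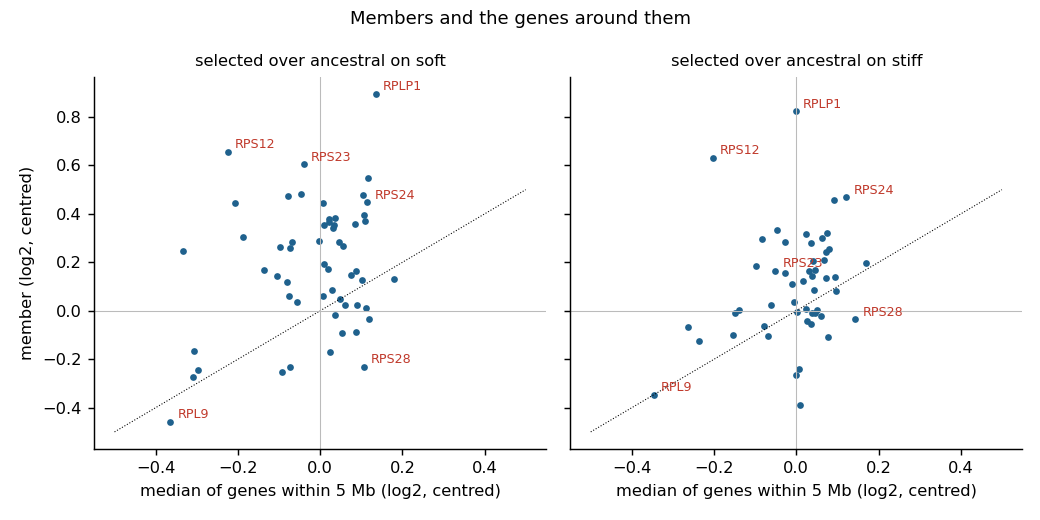
Centred log2 ratio of selected over ancestral cells at each ribosomal protein gene (vertical) and median of the other protein-coding genes within 5 Mb (horizontal), on soft gel (left, n = 56) and stiff gel (right, n = 51); the dotted line marks equal values. RPLP1 and RPS12 lie far above the line and RPL9 close to it.

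Taking only the peak over the promoter window, a measure chosen after the data were seen, gave the members on soft gel a centred median of 0.26 in selected over ancestral cells, with 45 of 54 members above the all-gene median. The same measure gave 0.12 for mitochondrial ribosomal proteins (49 of 67 above), 0.18 for the proteasome (29 of 31 above), 0.13 for ribosome biogenesis genes (12 of 16 above) and 0.06 for translation factors (6 of 9 above). On stiff gel it gave 0.12 for the members (29 of 51 above), 0.01 for mitochondrial ribosomal proteins, 0.07 for the proteasome, −0.03 for ribosome biogenesis genes and 0.17 for translation factors. On soft gel all 5 sets thus had a median above that of all genes. RPL6 turned round with this measure. Its tallest peak lies at the upstream end of the annotated gene, outside its promoter entries, and its promoter peaks of 271 against 389 fragments gave 0.58 in selected over ancestral cells on soft gel, against −0.17 for the tallest peak.

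The ratio over all genes showed no steady trend with peak height. With all genes measured in all 4 lists split into 4 bands of equal size by their mean relative pileup, the median centred log2 ratio of selected over ancestral cells on soft gel was 0.15, −0.11, −0.07 and 0.05 from the lowest to the highest band. These bands held 0, 14, 24 and 12 of the 50 members. The bands in which most members lie thus had medians below 0.

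The related lists, of the translation machinery and of the proteasome, also had medians above that of all genes on soft gel. Translation factors and other genes of the 5′TOP class, such as EIF3F (0.37) and NPM1 (0.29), had a centred median of 0.26 in selected over ancestral cells from their tallest peaks (8 of 11 above the all-gene median), against the 0.06 from promoter peaks. Ribosome biogenesis genes had 0.12 (11 of 16 above), mitochondrial ribosomal proteins 0.12 (51 of 70) and the proteasome 0.13 (30 of 33). On stiff gel the same lists had 0.08, −0.01, −0.00 and 0.05. Of the ribosomal proteins outside the symbol rule, RACK1, a scaffold protein of the small subunit, had 576 fragments in selected cells on soft gel against 899 in ancestral cells on soft gel, a centred log2 ratio of 0.46.

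By tallest peaks, the members' median lay closer to that of all genes between soft and stiff gel than between selected and ancestral cells. By promoter peaks, the centred 0.12 between gels in selected cells was no closer than the 0.12 of selected over ancestral cells on stiff gel. In ancestral cells the median log2 ratio of soft over stiff was −0.22 over 54 members and −0.24 over all genes, which left 0.02 after centring, with 31 of 54 members above the all-gene median (50% of all genes). Before centring, 0 members were past 1.5-fold higher (0.143% of all genes) and 1, RPL6, was past 1.5-fold lower (8.26%). After centring 0 were higher (0.81%) and 0 lower (2.85%). The tallest RPL6 peak had 677 fragments on soft gel against 1327 on stiff gel, with a centred log2 ratio of −0.48 (−0.62 to −0.35), and its promoter peak 389 against 669, with −0.27. RPS23 had 541 against 903 fragments and −0.25 (−0.41 to −0.09). RPL22, whose product is an RNA-binding protein of the large subunit, was highest at 0.29 (0.19 to 0.39), with 1515 against 1745, and RPL34 followed at 0.25.

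In selected cells the median log2 ratio of soft over stiff was −0.07 over 55 members and −0.14 over all genes, or 0.07 after centring, and 43 of 55 members were above the all-gene median (50% of all genes). Before centring, 0 members were past 1.5-fold higher (1.1% of all genes) and 2, RPL17 and RPL6, were past 1.5-fold lower (8.92%). After centring 0 were higher (2.35%) and 0 lower (5.76%). With promoter peaks the centred median was 0.12, with 47 of 53 members above that of all genes, against 0.06 and 34 of 52 for the same gel comparison in ancestral cells. In selected cells this measure gave 0.11 for mitochondrial ribosomal proteins (50 of 67 above) and 0.10 for the proteasome (28 of 32 above). It gave 0.05 for ribosome biogenesis genes (10 of 16 above) and 0.03 for translation factors (5 of 8 above). RPL17 had 427 fragments on soft gel against 726 on stiff gel at its tallest peak, with a centred log2 ratio of −0.49 (−0.66 to −0.31), but 162 against 191 and 0.07 at its promoter. RPL6 had 281 against 463 and −0.44, but 271 against 303 and 0.14 at its promoter. RPL21 was highest at 0.38 (0.14 to 0.62), with 301 against 280 fragments, and RPS7 next at 0.30. For soft over stiff gel RPLP1 stood at 0.09 in selected and 0.05 in ancestral cells, RPS12 at 0.08 and 0.09, RPL9 at −0.04 and 0.10, and RPS23 at 0.16 and −0.25.

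The spread over members was narrower than over all genes in both gel comparisons, as it was in the related lists. The SD over members was 0.14 in ancestral and 0.16 in selected cells on the log2 scale, against 0.27 and 0.35 over all genes. It was 0.10 and 0.18 over translation factors, 0.15 and 0.18 over the proteasome, 0.16 and 0.22 over mitochondrial ribosomal proteins, and 0.22 and 0.28 over ribosome biogenesis genes. The 2 gel comparisons share no list. Across members their centred log2 ratios had a Pearson r of 0.24 (n = 50), against 0.42 over all genes, and 21 of 50 members lay on opposite sides of the all-gene median.

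Peak length is the deposited width of the tallest peak. The widest listed peak measured 8443 bp in selected cells on soft gel and 7950 bp in selected cells on stiff gel. It measured 5650 bp in ancestral cells on soft gel and 5946 bp in ancestral cells on stiff gel. Wider peaks may be missing from each list, so lengths in selected and ancestral cells are not compared like for like. The median length over members was 1798 bp in selected cells on soft gel, 1607 bp in selected cells on stiff gel, 1888 bp in ancestral cells on soft gel and 2052.5 bp in ancestral cells on stiff gel, against 1621, 1634, 1660 and 1798 bp at other genes. In selected over ancestral cells the median log2 length ratio was −0.07 on soft gel, against −0.03 over all genes, and −0.24 on stiff gel, against −0.12. On soft gel 4 members were past 1.5-fold longer (13% of all genes) and 2 past 1.5-fold shorter (8.55%). On stiff gel 1 was longer (7.79%) and 7 were shorter (9.89%). For soft over stiff gel, 0 were longer (1.59%) and 1 shorter (8.28%) in ancestral cells, and 4 longer (7.6%) and 1 shorter (8.21%) in selected cells.

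A pair of stalk genes had the largest length ratios in selected over ancestral cells on soft gel. Their peaks in selected cells on soft gel were longer than the widest peak listed in ancestral cells on soft gel, 5650 bp. The RPLP2 peak measured 8062 bp in selected cells on soft gel, against 1943 bp in ancestral cells on soft gel, a ratio of 4.15, and against 2444 bp in selected cells on stiff gel. The RPLP1 peak measured 6727 bp in selected cells on soft gel, against 2122 bp in ancestral cells on soft gel, a ratio of 3.17, and against 3537 bp in selected cells on stiff gel. In selected cells on soft gel 1 peak covered the promoter, the gene and the sequence past its end. In the other lists in which the gene was determined the same span held a promoter peak and a separate weaker one of 72 to 141 fragments. The tallest RPL38 peak measured 7919 against 4514 bp on soft gel, but its summit lay past the gene's end and it covered the promoter of TTYH2. The RPL38 promoter peak measured 1132 against 1128 bp. The reverse of RPLP1 and RPLP2 was seen at RPL41, a very small protein of the large subunit. In selected cells on soft gel its span held 2 peaks, of 1226 bp with 356 fragments at the promoter and of 2566 bp with 1076 fragments and its summit past the gene's end, where ancestral cells on soft gel had a single peak of 4395 bp with 2362 fragments. The promoter measure for RPL41 in selected over ancestral cells on soft gel, −1.63, was the lowest of the members and sets peaks with different summits against each other.

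**Figure D5:**
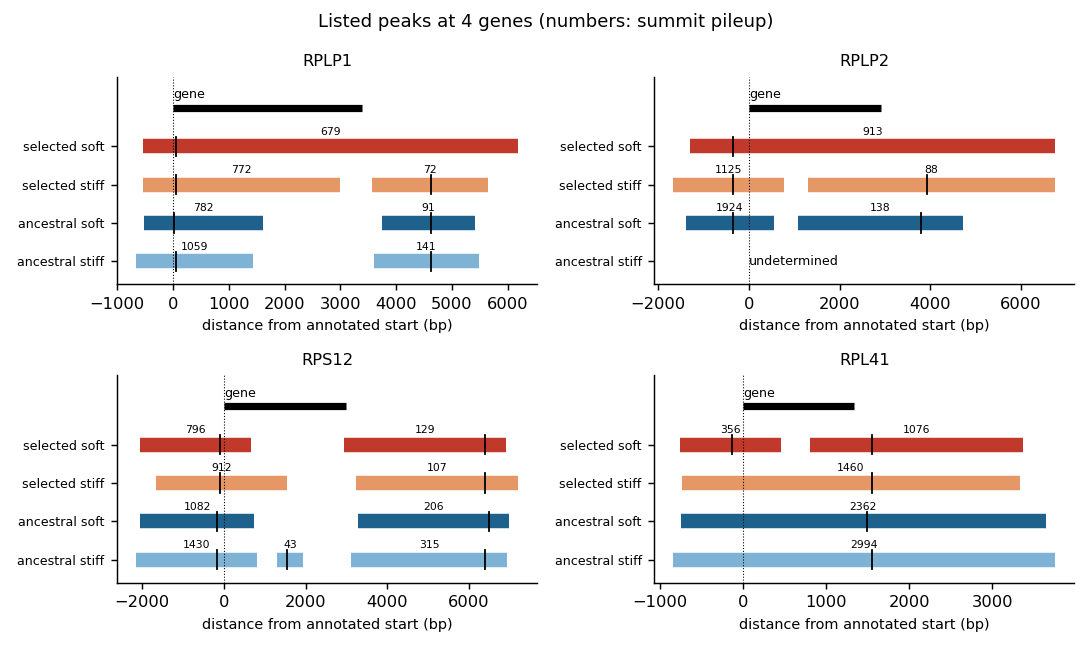
Listed peaks around RPLP1, RPLP2, RPS12 and RPL41 in the 4 lists, by distance in bp from the annotated start in the direction of transcription; coloured bars are peaks, the number above each is its summit pileup, the tick its summit, and the black bar the gene. RPLP1 and RPLP2 have 1 long peak in selected cells on soft gel and separate peaks elsewhere, and RPL41 the reverse; RPLP2 is undetermined in ancestral cells on stiff gel.

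The third stalk gene, RPLP0, the base to which both acidic proteins bind, had 1038 and 1207 fragments in selected cells on soft and stiff gel and 1739 and 2382 in ancestral cells. Its relative pileup of 20.4, 21.6, 15.7 and 18.0 was above that of RPLP1 in each list. RPLP2 had a relative pileup of 17.9 in selected cells on soft gel, 20.1 in selected cells on stiff gel and 17.3 in ancestral cells on soft gel. RPLP1 thus had the lowest of the 3 in each list in which all 3 were determined, and its distance from RPLP0 was smaller in selected than in ancestral cells. RPSA, a small-subunit protein also known as the laminin receptor precursor, had 696 and 839 fragments in selected cells and 1224 and 1846 in ancestral cells, on soft and stiff gel.

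Paralogues had a listed peak within 1 kb in this line, apart from RPL10L, but the tallest peak of RPL3L lay outside the gene. RPL22L1 had 634 and 640 fragments in selected cells on soft and stiff gel and 1302 and 1625 in ancestral cells, next to 732 and 823 in selected cells and 1515 and 1745 in ancestral cells for its partner RPL22. RPL26L1 had 520, 617, 1126 and 1613 in the same order, next to 790, 1073, 1622 and 2254 for RPL26. RPS27L, a p53 target, had 263, 303, 558 and 884, next to 431, 490, 713 and 953 for RPS27. RPL39L had 560, 678, 1071 and 1551. RPL22L1, RPL26L1 and RPS27L were each lower than their partner in every list. RPL7L1 was the reverse, its promoter peak of 1057, 1123, 1782 and 2475 fragments being above the tallest peak of its partner RPL7, with 714, 828, 1357 and 1899. RPL3L, known from skeletal muscle and heart, was determined in selected cells on soft gel (497) and ancestral cells on stiff gel (1154), while its partner RPL3 was undetermined in each list. Both RPL3L peaks lay outside the gene body and covered the promoter of MSRB1. Inside the gene the highest peak had 50 fragments in selected cells on soft gel and 63 in ancestral cells on stiff gel.

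At the promoters themselves, members holding TCTCGCGA had lower medians in selected over ancestral cells than members without it. On soft gel the 9 measured holders had a centred median of 0.13, with a range of −0.23 to 0.57, and the 45 without it 0.27, with a range of −1.63 to 0.90. On stiff gel the medians were −0.02 over 8 with and 0.12 over 43 without. Members with CCGGAAG had 0.20 on soft gel (n = 20), against 0.29 without it (n = 34), and −0.02 on stiff gel (n = 18), against 0.14 without it (n = 33). Members with C and 4 pyrimidines at the annotated start, RPLP1, RPS12 and RPS23 among them, had 0.23 on soft gel (n = 37), against 0.28 without it (n = 17), and 0.12 on stiff gel (n = 35), against −0.01 without it (n = 16). The ranges overlapped in each of these cases, and none of these differences was tested.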

How the data were processed

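ATAC-seq of 16 samples in 4 groups was analysed from 1 deposited MACS peak table per group. Per the submitters' processing notes, the tools were MACS2 2.2.7.1, Bowtie2 2.4.5, Trimmomatic 0.36, MultiQC 1.1 and FastQC 0.11.4, on GRCh38. What was done to join the 4 libraries of a group into 1 list is not given in the sources used here. Per the file headers, each deposited peak has a numbered name, a summit with its pileup signal, a fold enrichment and a −log10 q-value. The deposited pileup is a whole number not scaled to depth, and the authors' fold enrichment is relative to 1 background value per list, so both depend on depth and on how much of a library lies outside peaks.

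Each gene took its highest peak within 1 kb of the gene body. A gene whose window touched a stretch with a skipped peak number was called undetermined and left out of that list. Pileup was divided by the list median, and log2 ratios were centred on the median of all protein-coding genes. The 95% intervals are exact, conditional on the sum of both pileups, and cover counting error only. Fragments are not molecule-tagged and may include PCR copies. Genes were counted past 1.5-fold. Named members are those without a peak or undetermined, the 5 highest and 5 lowest, the 4 highest and 4 lowest ratios and 3 longest and 3 shortest per comparison, paralogues and stalk genes. Others named were chosen after their values were seen. The members, gene lists and tests were chosen with earlier results of these data known. Alternatives covered windows, scalings, significance minimum, fold and the peak used. Steps were tested on simulated data. Work was done in matplotlib 3.10.9, scipy 1.17.1, pandas 2.3.3, numpy 2.4.6 and python 3.11.15. A table of RefSeq proteins and a genome were not used here. Some members enter the counts and are not reported by name here.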

Additional observations from a re-analysis of the deposited data

How the results depend on the processing

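Each group has a single list, so no sample could be left out, and each value carries counting error only. No paired analysis was possible because the numbered samples of a group share 1 deposited list. The numbers of members with a peak stayed within 1.5 times of those reported under each alternative run for them (a 3 kb window, gene ends only, undetermined genes counted by listed peaks, the 54789 best peaks per list, and a −log10 q minimum of 10). The members' direction against the list median depends on the scaling, whereas their centred values do not, since each scaling shifts all genes nearly alike. Alternatives with undetermined genes kept, and with the peak over the promoter window, were chosen after the data were seen.

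With the authors' fold enrichment as the scale, the median log2 ratio of selected over ancestral cells was −0.66 on soft gel, the opposite sign to the 0.21 reported, and −0.53 on stiff gel, and that of soft over stiff gel in selected cells was −0.29. On that scale 0 members were past 1.5-fold higher and 30 lower in selected over ancestral cells on soft gel, 0 higher and 23 lower on stiff gel, and 4 lower for soft over stiff gel in selected cells. With the median of top peaks as the scale, the medians were 0.32 on soft and 0.29 on stiff gel in selected over ancestral cells, 0.054 for soft over stiff gel in selected cells and, with the sign reversed, 0.012 in ancestral cells. With the median of other protein-coding genes as the scale they were 0.21 for selected over ancestral cells on stiff gel, 0.18 for soft over stiff gel in selected cells and, with the sign reversed, 0.079 in ancestral cells.

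Counts past 1.5-fold higher in selected over ancestral cells on soft gel were 8 with summed pileups, 7 with other genes as the scale, 9 with top peaks as the scale, 5 with undetermined genes kept, 5 with promoter peaks (and 1 lower) and 0 past 2-fold. On stiff gel they were 1 with summed pileups, 4 with top peaks, 6 with undetermined genes kept and 0 past 2-fold. For soft over stiff gel in ancestral cells the count lower was 3 with summed pileups and 0 with either other scale, with promoter peaks or past 2-fold, and 2 were higher with undetermined genes kept. In selected cells the count lower was 0 with summed pileups, with either scale or past 2-fold, and 1 with promoter peaks.

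With the lengths of all peaks at a gene summed, the median log2 length ratio was 0.036 in selected over ancestral cells on soft gel, and −0.20 for soft over stiff gel in ancestral cells. Counts longer and shorter were then 7 and 4 on soft gel and 2 and 13 on stiff gel in selected over ancestral cells, 6 shorter for soft over stiff gel in ancestral cells, and 2 and 2 in selected cells. Past 2-fold they were 2 and 1 on soft gel and 0 and 1 on stiff gel in selected over ancestral cells, 0 shorter for soft over stiff gel in ancestral cells, and 2 and 0 in selected cells. With undetermined genes kept, 7 were longer on soft gel and 2 on stiff gel in selected over ancestral cells, and 2 were shorter for soft over stiff gel in ancestral and 2 in selected cells. With length over the list median, 3 were longer and 3 shorter in selected over ancestral cells on stiff gel.

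Among named members, the sign of the centred log2 ratio turned with the peak used. With promoter peaks, selected over ancestral cells gave 0.093 for RPL17, 0.070 for RPL35A and 0.58 for RPL6 on soft gel, and −0.076 for RPL17, 0.13 for RPL6 and −0.18 for RPS29 on stiff gel. RPS29 on stiff gel was −0.19 with peaks near a gene end. With promoter peaks, soft over stiff gel gave 0.042 for RPL7L1 in ancestral cells, and 0.067 for RPL17, 0.14 for RPL6 and 0.22 for RPL7L1 in selected cells. With summed pileups, RPL27 was −0.0061 on soft and −0.048 on stiff gel and RPL6 0.11 on soft gel in selected over ancestral cells, and RPL41 was 0.21 for soft over stiff gel in selected cells. RPLP1, RPS12 and RPL9 kept their direction in selected over ancestral cells on both gels under each alternative run for them. This was bound to hold for the scalings, which leave centred values nearly unchanged, and for RPL9, with 1 listed peak in each list. For RPLP1 and RPS12 the tallest peak was already the promoter peak, so only summed pileups brought in other peaks.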
